A study of Rhipicephalus microplus with 12 samples.

Results

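A group of 172 probes, of 13459 with deposited values (1.278%), was described in the cattle tick Rhipicephalus microplus. Their log2 ratios to a reference pool were high in the ovary, lower in the salivary gland and lowest in the midgut. Read as tissue over pool, the likely direction, the transcripts were highest in ovary. Read as pool over tissue, they would be lowest in ovary and highest in midgut. The probes were chosen by their measured values. The mean log2 ratio of the ovary over its 4 arrays had to stand at least 3 above that of the midgut and at least 1.5 above that of the salivary gland. Those differences are therefore a description of the choice, and no test is given for them. A log2 difference of 3 is a fold of 8.

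Midgut, ovary and salivary gland were taken from adult females of the Mozambique strain, fed on Holstein-Friesian cattle, at day 20 of infestation, and no treatment is given in the labels. Each of the 12 arrays of 2 colours carried cDNA of 1 tissue (Cy5) beside that of a shared reference pool (Cy3). The pool held ticks of mixed stages from days 4, 5, 7, 13 and 15 and female tissues of day 20. Each tissue had 2 biological replicates with 2 arrays each, so n = 2 per tissue, and each value given below for a replicate is the mean of its 2 arrays. The labels do not say how many ticks a replicate held, and the spread between replicates may be technical. The ratio is likely tissue over pool, because Cy5 is the tissue's dye in the labels and red over green is the form limma uses, the tool that the submitters' processing notes name. Each order of tissues, fold and share below takes this direction, and the other would turn them all. The 4 ovary arrays shared 1 slide and the 8 others shared another, which leaves ovary and slide as a pair that cannot be told apart. Array medians over all probes ranged from -0.05 to 0.39, and 3 arrays were low within their tissues: in midgut the repeat of replicate 2 (-0.05), in ovary the first of replicate 1 (-0.03) and the repeat of replicate 2 (-0.03). Without these 3 arrays the rule chose 182 probes, 168 of them among the 172.

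In a feeding female tick the midgut takes up and digests the blood meal inside its epithelial cells, and the salivary gland returns water and secretes proteins into the host. The ovary holds oocytes at successive stages, which load yolk proteins that are made largely outside the oocyte and lay down their own store of maternal RNA and protein.

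The probes carry contig or sequence identifiers rather than gene names, and no probe sequence was used here. An identifier was paired with 171 of the 172, and 1 probe stayed without one. None of the 13459 identifiers matched the RefSeq gene table of the species (0 matches), so markers of the tissues and lists of genes by function were not analysed here, and no role is given to any probe. Of the 171 identifiers, 142 (83.0%) began with Contig, against 71.2% of all 10695 paired identifiers. CK identifiers made up 8.77% against 9.87%, CV identifiers 5.85% against 13.2% and TC identifiers 2.34% against 3.60%. The probes were spread over the feature numbers, with 39, 42, 52 and 39 in 4 successive blocks of equal size.

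**Figure D1:**
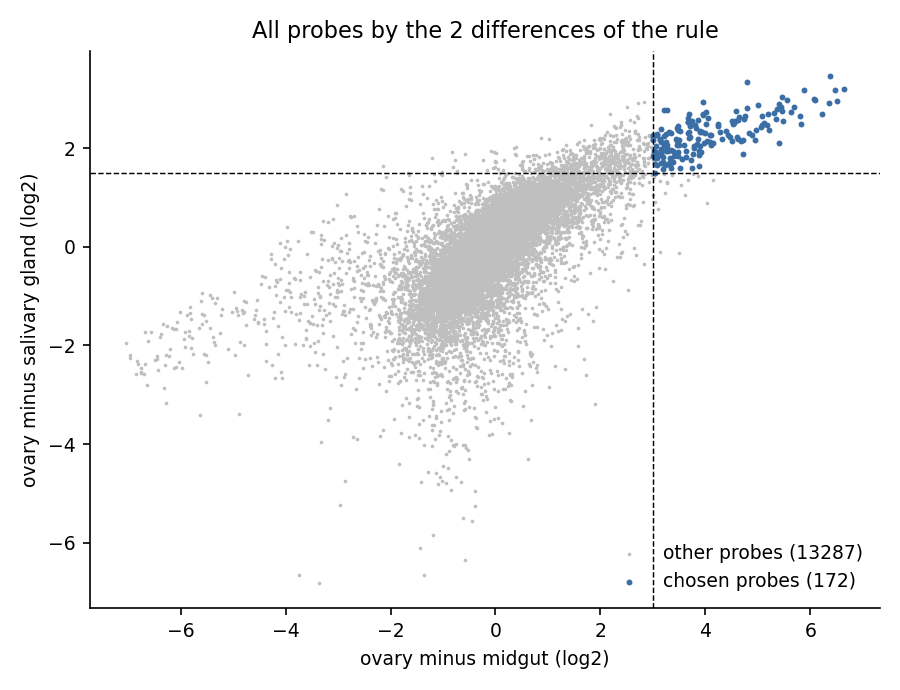
Each point is a probe, with the log2 difference of ovary minus midgut on the x axis and of ovary minus salivary gland on the y axis, both from means of 4 arrays per tissue. Dashed lines mark the limits of 3 and 1.5, and the 172 probes chosen by them fill the upper right corner.

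By the means of 4 arrays, the ovary stood above the pool at all 172 probes, and both other tissues stood below it at all 172. The limits set ovary far above both, so these counts partly describe the choice. The ovary log2 ratio had a median of 1.33 and ranged from 0.44 to 2.40. The midgut ratio had a median of -2.49 and ranged from -4.92 to -1.31. The salivary gland ratio lay between, with a median of -0.94 and a range from -1.81 to -0.17. Over all 13459 probes the median ratio was 0.24 for ovary, 0.25 for midgut and 0.10 for salivary gland. The ovary exceeded the midgut by a median of 3.80 on the log2 scale, a fold of 13.9, and the salivary gland by a median of 2.27, a fold of 4.81. The ratios kept 1 order at these probes, ovary over salivary gland over midgut, at 172 of 172. For most probes the rule itself set this order. A probe under 3 on ovary minus salivary gland must be lowest in midgut, and the upper quartile of that difference was 2.55. With the ratio turned the order would be midgut over salivary gland over ovary.

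Expressed as a share of the ovary level at the same probe, the midgut level had a median of 7.20% and ranged from 1.01% to 12.5%. With the ratio turned, the midgut level would instead be a median of 13.9-fold above the ovary level, and 8.004-fold to 99.5-fold over the 172 probes. The salivary gland level had a median of 20.8% of the ovary level, from 9.03% to 35.1%. The upper end of the midgut share is set by the rule, and spot intensities were not used here, so the transcripts are called low in midgut rather than absent from it. In whole tissue, fewer cells of a type and less RNA per cell cannot be told apart. The array compares each probe with itself between tissues, so no level is set against that of another probe.

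**Figure D2:**
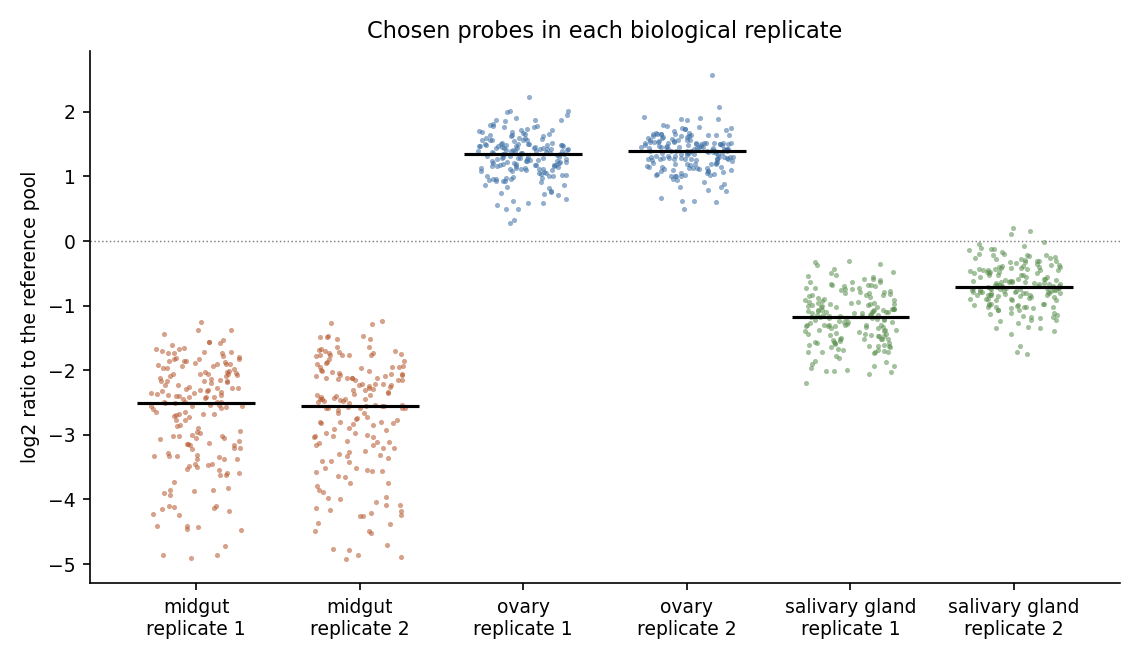
Each point is 1 of the 172 chosen probes in 1 biological replicate (mean of 2 arrays), as log2 ratio to the reference pool, and bars are medians over the probes. The ovary replicates have medians of 1.34 and 1.40, the midgut replicates -2.50 and -2.55, and the salivary gland replicates -1.17 and -0.71.

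The ovary ratio to the pool varied less across these probes than the midgut ratio did. The SD across probes was 0.26 on the log2 scale for the ovary ratio, 0.33 for the salivary gland ratio and 0.85 for the midgut ratio. At the 104 probes with an ovary minus midgut difference from 3 to 4, the median ratio was 1.29 for ovary, -0.78 for salivary gland and -2.17 for midgut. The 38 probes from 4 to 5 had medians of 1.35, -1.05 and -3.17. At the 30 probes with at least 5, the medians were 1.58, -1.24 and -4.06. From class to class the medians of midgut and salivary gland were lower and that of ovary was higher, and the steps were widest in midgut. The median midgut level was 9.53%, 4.31% and 2.26% of the ovary level in the 3 classes, and the median salivary gland level 23.9%, 19.6% and 14.8%. The classes were cut on a difference that contains the midgut and ovary values, so these medians describe the choice and are no test.

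Across the 172 probes, the midgut and salivary gland ratios had Pearson's r = 0.65 (Spearman's rho = 0.64), the midgut and ovary ratios -0.11 (-0.12) and the ovary and salivary gland ratios 0.09 (-0.08). These are descriptions over probes that share the same 12 arrays and were cut by the rule, and probes are not replicates.

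**Figure D3:**
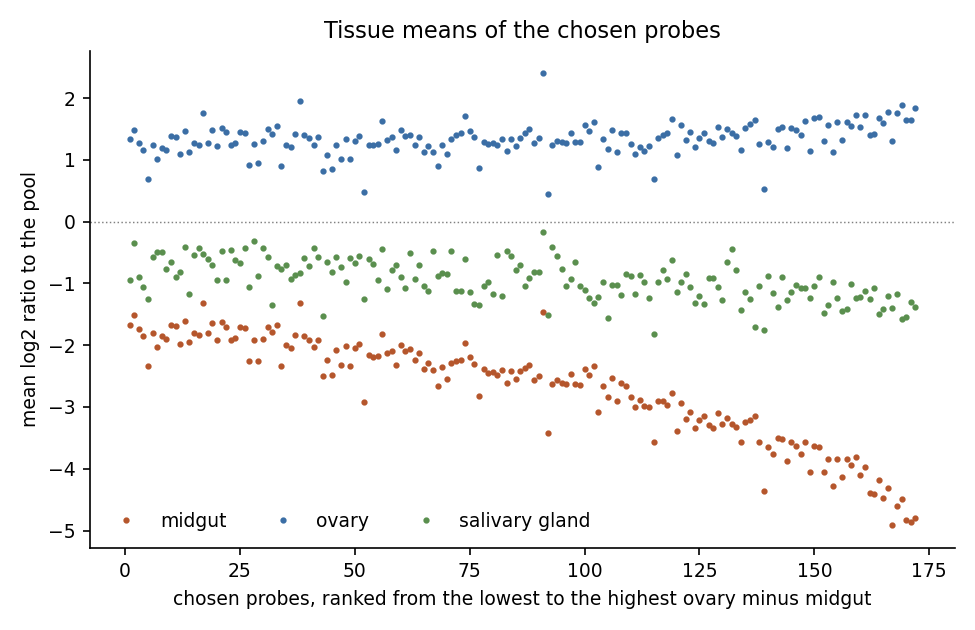
The 172 chosen probes ranked by ovary minus midgut on the x axis, with the mean log2 ratio to the pool of each tissue on the y axis (means of 4 arrays). The ovary points lie between 0.44 and 2.40 along the whole ranking, while the midgut points go from near -1.67 to near -4.81.

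In the mean of 4 arrays, no probe with deposited values had a higher ovary ratio than the highest of this group (0 of 13459). That probe was Contig3420, with 2.23 and 2.57 in the ovary replicates, -1.44 and -1.49 in the midgut replicates and -0.55 and 0.20 in the salivary gland replicates. Within each ovary replicate, probes outside the group reached higher, up to 2.758 in replicate 1 and 2.835 in replicate 2. By the mean, Contig4561 came next within the group, with 2.01 and 1.89 in ovary, -1.38 and -1.24 in midgut and -1.15 and -0.50 in salivary gland. Its mean midgut ratio was the highest of the group. High ovary ratios were not restricted to the group: 1179 probes (8.76%) had an ovary ratio at or above its median of 1.33. Very low midgut ratios were not restricted to it either, as it held 56 of the 246 probes with a midgut ratio of -3 or lower and 17 of the 93 at -4 or lower.

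The widest gap between ovary and midgut was at Contig6410. Its log2 ratios were 2.01 and 1.65 in the ovary replicates, -4.73 and -4.88 in the midgut replicates and -1.57 and -1.19 in the salivary gland replicates. The ovary exceeded the midgut by 6.64 (SE 0.23), a fold of 99.5, and the salivary gland by 3.21 (SE 0.23), a fold of 9.27. Contig337 followed, with 1.87 and 1.43 in ovary and -4.86 and -4.86 in midgut, a difference of 6.51 (SE 0.34). Its salivary gland replicates lay far apart, at -1.82 and -0.79. The limma fit estimates 1 spread per probe over the 3 tissues, so that gap enters the SE of 0.34.

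Contig8884 had the largest difference between ovary and salivary gland, 3.47 (SE 0.38), a fold of 11.1. This value rested on 1 salivary gland replicate more than on the other, since the replicates gave -2.20 and -0.97, against 1.99 and 1.78 in ovary and -4.47 and -4.51 in midgut. At Contig2208 the salivary gland replicates were close, at -1.68 and -1.71, and the ovary exceeded them by 3.35 (SE 0.19), a fold of 10.2. Its midgut replicates stood at -3.07 and -3.21 and its ovary replicates at 1.80 and 1.499.

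At the limits of the rule, values on both sides were alike. Just inside the limit of 3 were Contig4165, with 3.00 (SE 0.27), and Contig6218, with 3.00 (SE 0.21), and just outside were Contig2573, with 2.99 (SE 0.19), and Contig3978, with 2.98 (SE 0.19). Just inside the limit of 1.5 were Contig8368, with 1.51 (SE 0.34), and Contig7126, with 1.58 (SE 0.19), and just outside were CV443252, with 1.48 (SE 0.21), and Contig359, with 1.47 (SE 0.51). In all, 191 probes reached the limit on ovary minus midgut, of which 19 missed the limit on salivary gland. Their salivary gland ratios ranged from -1.15 to 0.40, with a median of -0.24. The limit on salivary gland was reached by 661 probes, so the 172 made up 26.0% of these.

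The fit across all probes (limma, Benjamini-Hochberg adjusted p of at most 0.05) called 18.3% of the 13459 probes higher in ovary than in midgut and 21.6% higher in ovary than in salivary gland, and all 172 were among both. The rule used these contrasts, so nothing is read from those counts. For salivary gland over midgut the fit called 10.6% of all probes and 153 of the 172. That contrast is the difference of the contrasts of the rule, so this count too is given only as a description. It was 71 of 172 with scale normalization, where the fit called 6.85% of all probes, and 100 with quantile normalization, against 8.7%. With first arrays only it was 114, against 5.74%, and with repeat arrays only 109, against 4.69%. At an adjusted p of 0.01 it was 113, against 4.92%. Without salivary gland replicate 1 it was 150 and without salivary gland replicate 2 it was 116, both against 7.45%.

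The salivary gland exceeded the midgut by a median of 1.61 on the log2 scale, a fold of 3.06, and by 0.44 to 3.55 over the 172 probes. Under scale normalization the median was 0.99. In replicate 1 the median was 1.43 and in replicate 2 it was 1.99, and the salivary gland was the higher in each replicate at 172 of 172. Salivary gland minus midgut is the gap between the differences that the rule cut, so this count and the next mostly describe the choice. Both salivary gland replicates lay above both midgut replicates at 171 of the 172, against 26.5% of all probes. The exception was Contig1826, where the midgut replicates gave -2.97 and -1.70 and the salivary gland replicates -2.02 and -0.61. The 19 probes that the fit did not call had differences of 0.44 to 1.26, and all 19 had an ovary minus midgut difference under 4.

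The largest excess of salivary gland over midgut, 3.55 (SE 0.34) or 11.7-fold, was at Contig337, described above, and the next was at Contig2561, with 3.52 (SE 0.37). Contig2561 had the lowest midgut ratios of the group, -4.91 and -4.92, with 1.57 and 1.04 in ovary and -1.94 and -0.85 in salivary gland. The smallest excess was at TC15702, with 0.44 (SE 0.24), from -1.64 and -1.07 in salivary gland and -1.85 and -1.74 in midgut. At that probe the ovary alone stood high, with 1.52 and 1.32. Contig4561 was close to it, with a salivary gland excess of 0.49 (SE 0.25).

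To read the pattern in samples that had no part in the choice, the rule was applied to 1 biological replicate alone and the values were taken from the other. With 1 sample per tissue there is no test. Ovary lay on its own slide in both replicates, so this check cannot tell tissue from slide. Replicate 1 chose 165 probes, of which 137 (83.0%) met the same limits in replicate 2, where 1.32% of all probes met them. The median ovary minus midgut difference of the 165 probes was 3.82 in replicate 1 and 3.88 in replicate 2, where the median over all probes was 0.04. All 165 stood higher in ovary than in midgut in replicate 2, against 51.6% of all probes, and 149 by at least 3. Their median ovary minus salivary gland difference was 2.495 in replicate 1 and 2.03 in replicate 2. In replicate 2, 164 of 165 were above 0, against 54.5% of all probes, and 152 at 1.5 or more.

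In the opposite direction, replicate 2 chose 177 probes, and 137 (77.4%) met the limits in replicate 1, against 1.23% of all probes. The median ovary minus midgut difference was 3.83 in replicate 2 and 3.69 in replicate 1, and the median ovary minus salivary gland difference was 2.06 in replicate 2 and 2.40 in replicate 1. All 177 kept the sign of both differences. Of all probes in replicate 1, 40.4% were above 0 for ovary minus midgut and 54.6% for ovary minus salivary gland. The probes that departed most were not among the 172. Contig2612 had an ovary minus midgut difference of 3.39 in replicate 1 and 0.59 in replicate 2, and Contig6293 had 3.19 in replicate 2 and 0.03 in replicate 1. At CK174619 the ovary stood 2.60 above the salivary gland in replicate 1, and the difference was -0.84 in replicate 2.

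**Figure D4:**
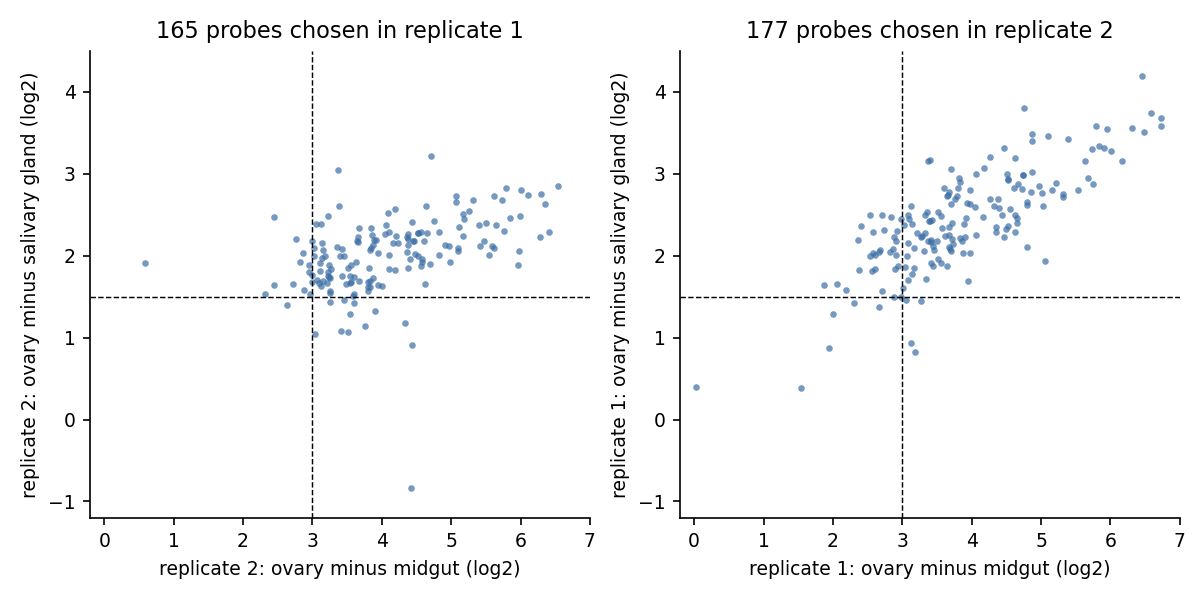
Probes chosen by the rule in 1 biological replicate, plotted by their log2 differences in the other: ovary minus midgut on the x axis and ovary minus salivary gland on the y axis. Dashed lines mark the limits of 3 and 1.5, and 137 of 165 (left) and 137 of 177 (right) lie beyond both.

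The salivary gland replicates differed from each other at these probes, and the rule, which averaged them, did not use that difference. Replicate 2 stood above replicate 1 at 156 of the 172 probes (90.7%), by a median of 0.51 on the log2 scale. Over all probes replicate 2 was higher at 45.9%, with a median of -0.03. The medians of the 172 on the 4 salivary gland arrays were -1.19 and -1.17 for replicate 1 and -0.69 and -0.72 for replicate 2, so the arrays of a replicate lay together. At 142 of the 172 probes (82.6%) both arrays of replicate 2 lay above both arrays of replicate 1, against 29.5% of all probes. As a share of the ovary level of the same replicate number, the salivary gland level had a median of 18.3% in replicate 1 and 24.1% in replicate 2. The cause of the difference was not tested.

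The gap between the salivary gland replicates was present in each class of ovary minus midgut. Its median was 0.44 at the 104 probes from 3 to 4, 0.53 at the 38 from 4 to 5 and 0.59 at the 30 with at least 5, where replicate 2 was the higher at 29. Contig8396 had the widest gap, with -2.01 in replicate 1 and -0.41 in replicate 2, and Contig5791 had the widest in the other direction, with -0.49 and -1.75. The gap was not particular to the group. At the 19 probes that met the limit on midgut alone, replicate 2 was the higher at 16 (84.2%), with a median gap of 0.47. Among the other 489 probes at least 1.5 higher in ovary than in salivary gland, replicate 2 was the higher at 383 (78.3%), with a median gap of 0.21. Among the 107 probes chosen by the same limits with salivary gland as the high tissue and ovary as the low one, it was the higher at 67 (62.6%), with a median of 0.43. Among the 224 probes chosen by the same limits with midgut as the high tissue and ovary as the low one, it was the higher at 66 (29.5%), with a median of -0.22. The difference between these sets was not tested, since each tissue has only 2 replicates.

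The gaps were smaller in midgut and ovary. Midgut replicate 2 was above replicate 1 at 75 of the 172 (43.6%), with a median difference of -0.03, and ovary replicate 2 at 102 (59.3%), with a median of 0.06. Both arrays of ovary replicate 2 lay above both of replicate 1 at 69 of the 172 (40.1%), against 15.2% of all probes. The probes kept their order between the midgut replicates (Pearson's r = 0.93 across the 172) and less closely between the salivary gland replicates (0.48). They kept it least between the ovary replicates (0.32), where their SD across probes was smallest. The median SD between the replicates was widest in salivary gland, at 0.36 against 0.18 over all probes. It was 0.12 in midgut (0.16 over all probes) and 0.13 in ovary (0.15). The widest gaps between ovary replicates were at Contig3283, with 1.91 and 0.60, and at TC19555, with 0.49 and 1.76. At Contig3283 both ovary replicates still lay above the midgut (-2.08 and -2.28) and the salivary gland (-0.92 and -0.98).

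**Figure D5:**
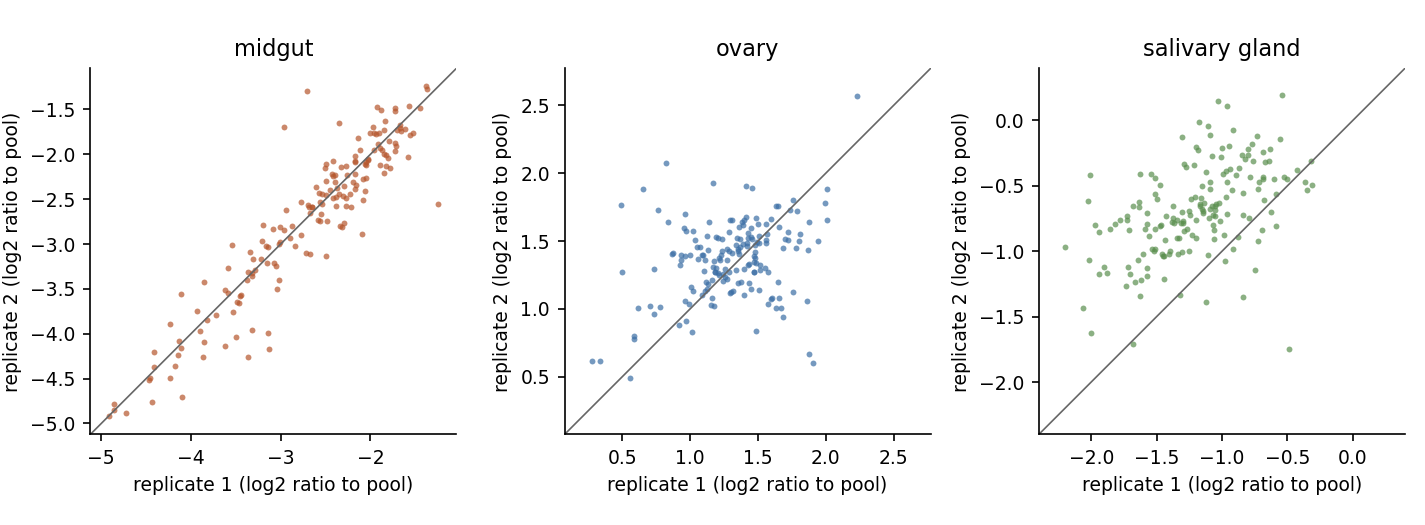
Log2 ratio to the pool of the 172 chosen probes in replicate 2 (y axis) against replicate 1 (x axis) for each tissue, with the line of equal values. Midgut points follow the line, ovary points form a compact cloud around it, and salivary gland points lie above it at 156 of 172.

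The arrays that were low over all probes were not low at this group by the same amount. Medians of the 172 on the ovary arrays were 1.28 and 1.40 for replicate 1 and 1.41 and 1.35 for replicate 2, whereas the medians of all probes on the same arrays were -0.03, 0.39, 0.34 and -0.03. On the repeat array of midgut replicate 2 the median of the group was -2.54, against -2.49, -2.56 and -2.54 on the other midgut arrays. Centring each array on its median over all probes gave 174 chosen probes, 171 of them among the 172.

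For some contigs the array held a pair of probes marked A and B, and the files do not say how these differ. The group held 4 probes marked A (Contig46A, Contig80A, Contig190A and Contig9005A) and none marked B, and a paired B probe was found for the first 3. None of the 3 partners followed its A probe. Contig190A had an ovary minus midgut difference of 4.89, and Contig190B had 0.08 (SE 0.25, limma adjusted p = 0.833), with -0.88 and -1.44 in ovary and -1.30 and -1.18 in midgut. Contig46A gave 3.23, and Contig46B gave -1.03 (SE 0.19, limma adjusted p = 0.00549). Contig80A gave 3.32, and Contig80B gave -0.62 (SE 0.19, limma adjusted p = 0.0396). All 3 partners were lower in ovary than in salivary gland, by -1.58, -1.30 and -1.02 (limma adjusted p = 0.00328, 0.00274 and 0.00642). Among other contigs with both probes paired, some B probes also stood lower in ovary than in salivary gland, and some stood higher. Their differences ranged from -2.31 at Contig44B to 1.87 at Contig199B. A lower ovary is therefore not particular to the 3 partners. The B probes took no part in the choice. Over the 58 contigs with both probes paired, the ovary minus midgut differences of A and B had Pearson's r = 0.04, and the median gap between them was 1.16 on the log2 scale.

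The authors' deposited tables left out single spots, which could be read from the arrays that their fold changes averaged. Among the 171 paired probes, 4.09% of midgut spots, 3.22% of ovary spots and 2.05% of salivary gland spots were left out, against 7.27%, 5.17% and 4.31% for all 10695. When the limits were applied to the log2 fold changes in the authors' deposited tables, 172 probes met them, of which 169 were among the 171. The largest gap between the midgut to ovary difference over all 4 arrays and that in the authors' deposited table was 0.54, at Contig344. The probe without an identifier had 1.52 and 1.28 in ovary, -3.01 and -2.82 in midgut and -0.84 and -0.72 in salivary gland.

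Outside the group, the probes with the profile most like its median over the 6 replicate means were Contig2573 (Pearson's r = 0.9999), Contig1302 (0.9998) and Contig3354 (0.9990). Contig2573 lay just short of the limit on midgut, and Contig1302 and Contig3354 had ovary minus midgut differences of 2.83 and 2.15. In total, 716 probes outside the group had r of at least 0.95 with that profile. Within the group r ranged from 0.93 to 0.9997, a consequence of the choice.

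The spread of the group in its high tissue can be set beside that of probes chosen by the same limits around another tissue, with ovary as the low one. The 224 probes with midgut as the high tissue had a median midgut ratio of 2.15 with an SD across probes of 0.67, and the 107 with salivary gland as the high tissue had a median of 1.03 with an SD of 1.503. The ovary group had 1.33 and 0.26, the smallest SD of the 3. These differences were not tested.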

How the data were processed

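The authors deposited normalized log2 ratios, 1 for each probe on each array. The submitters' processing notes name limma. For background correction, normalization and tool version, the sources used here give nothing. The authors' deposited comparison tables give a log2 fold change, a linear fold (a ratio, signed in 2 of the tables) and an adjusted p-value per probe, per the file headers.

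The value table names probes by number. Numbers were paired with identifiers through the authors' log2 fold changes, which equal differences of tissue means over all arrays (7129 probes) or part of them (3566) within 2e-08, with 0 ambiguous. The 2764 other probes have no identifier here. The arrays of a replicate were averaged, tissue means were fitted by lmFit and eBayes (limma 3.58.1, R 4.3.3, 3 residual degrees of freedom), with Benjamini-Hochberg adjustment across the 13459 probes. Calls are counted in 1 direction. The number of arrays limits the precision. An SD is between 2 replicates unless given as across probes, and an SE is from limma. The 3 tissues share 1 estimate of spread per probe. The SE of a difference therefore also holds the spread of the tissue outside it, and is not the replicate spread of its own 2 tissues.

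Named probes follow a rule: the 2 highest and 2 lowest per difference, the 2 highest ovary ratios, the 2 widest ovary gaps, neighbours of the limits, and the 3 most alike probes. The extremes of the replicate check, of the salivary gland gap, the A and B pairs, Contig344 and Contig1826 were named after their values were seen. The group of probes and the alternatives were chosen with earlier results of these data known. Figures were drawn with matplotlib 3.10.9.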

Additional observations from a re-analysis of the deposited data

How the results depend on the processing

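The number of chosen probes was 110 under scale normalization, 301 with limits of 2.5 and 1.0 and 96 with limits of 3.5 and 2.0, and 154 to 191 under the other alternatives run, with 162 to 189 when 1 replicate was left out. The median ovary minus midgut difference of the 172 was 3.27 under scale normalization. Over the probes that the looser and stricter limits chose, it was 3.21 and 4.54. The median salivary gland minus midgut difference was 0.99 for the 172 under scale normalization and 2.03 for the probes of the stricter limits. It was 2.06 for probes chosen in replicate 1 and read in replicate 2. Without 1 replicate, these medians of the 172 were 3.77 to 3.84 and 1.42 to 1.93, and that of ovary minus salivary gland 2.02 to 2.503. Limma counts over all probes moved by over 1.5 times as follows. Higher in ovary than in midgut were 4061 without the 3 low arrays, against 2459. Higher in ovary than in salivary gland, against 2913, were 5287 without the 3 low arrays, 1766 with first arrays only, 1656 with repeat arrays only, 1511 at an adjusted p of 0.01 and 1683 with a 2-fold limit. Higher in salivary gland than in midgut, against 1430, were 922 under scale normalization, 773 with first arrays only, 631 with repeat arrays only, 662 at an adjusted p of 0.01 and 2243 with the replicate as a random block. Without 1 replicate the counts were 1716 to 2481, 1611 to 3254 and 873 to 1157, the lowest without ovary replicate 2 (1716 and 1611) and midgut replicate 2 (873), and for ovary over salivary gland 1860 when ovary replicate 1 was left out and 1718 when salivary gland replicate 1 was. A lone sample was then assumed to vary like the other tissues. A stricter threshold lowers a count by itself, and the cause of the other shifts was not tested. A replicate block gave 2402, 2853 and 1411. Deviations of replicates with the same number correlated at -0.03, 0.03 and 0.10 over all probes, and 1 difference per tissue cannot settle pairing. The differences of the single named probes were recomputed 812 times, and 753 stayed within 1 SD between replicates, 59 moved further and 0 changed sign. The alternative on the spots the authors kept was chosen after seeing the data. With 2 replicates per tissue and no spot intensities used, levels near background cannot be marked.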
